A study of Mus musculus with 53 samples.

Results

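The genes described are 9 members of the Hedgehog signalling pathway in mouse intestine: the ligands Ihh and Shh, the receptor Ptch1, the signal transducer Smo, the ligand-binding inhibitor Hhip, the transcription factors Gli1, Gli2 and Gli3, and the target gene Foxf1. They were taken by symbol from a table of read counts that holds 55421 genes, and each of the 9 symbols matched 1 row. The counts came from 53 RNA-seq libraries of whole intestinal tissue or tumour in 11 groups, and each group was compared with its own WT group. Every mouse carried VilCreER, a tamoxifen-inducible Cre recombinase active in the intestinal epithelium, and WT mice carried it alone. Mice were induced at 6 to 12 weeks of age.

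In the small intestine, the groups were Apcfl/fl mice sampled 4 days after induction (n = 10) with WT of the same day (n = 6), and primary tumours of Apcfl/+ mice (n = 5) with WT tissue (n = 3). In the proximal colon, primary tumours of BA mice (BrafV600E/+ Alk5fl/fl, n = 4) had a WT tissue group (n = 3). The remaining proximal colon tissue was taken 30 days after induction from BA mice (n = 5), BA mice on antibiotics (n = 5), A mice (Alk5fl/fl alone, n = 4), A mice given sulindac (n = 4) and WT mice (n = 4). Antibiotics were ampicillin 1 g/L, neomycin trisulphate 1 g/L, vancomycin 500 mg/L and metronidazole 1 g/L in the drinking water from the day after tamoxifen. Sulindac, an inhibitor of prostaglandin synthesis, was given at 0.4 g/L for 14 days and then withdrawn. The Apcfl/+ tumours and their WT were on inbred C57BL6/J N9 and the other groups on mixed C57BL/6J N6. Because Cre acts in the epithelium, the muscle, fibroblasts and immune cells in each sample kept unrecombined alleles.

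Hedgehog ligands bind Ptch1, which in their absence holds Smo inactive. Once Smo is released, Gli2 and Gli3 proteins activate targets instead of repressing them, and Gli1, Ptch1 and Hhip are themselves targets, so that their transcripts are widely read as a measure of pathway activity. In the intestine the ligands are made by epithelial cells and act mainly on the mesenchyme beneath, where Foxf1 is expressed. In adult colon and small intestine Ihh is the main ligand, and Shh is confined to few cells near the crypt base.

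On the GRCm38 build Ihh lies at chr1:74945315-74951672, Shh at chr5:28456815-28467256, Ptch1 at chr13:63508328-63573598, Gli1 at chr10:127329882-127341974, Gli2 at chr1:118834132-119053619 and Hhip at chr8:79965851-80058006, all on the minus strand. Gli3 at chr13:15463235-15730026, Smo at chr6:29735503-29761365 and Foxf1 at chr8:121084386-121088144 lie on the plus strand. Promoters of 250 bases before to 50 after the start, from RefSeq on GRCm38.p6, were matched for 6 of the 9 genes, namely Ihh, Ptch1, Gli2, Gli3, Hhip and Smo. The 3 shown belong to Hhip and Ptch1, which are both Gli targets, and to Smo, whose transcript moved opposite to theirs after Apc loss. They are written 5′ to 3′ on the strand of the gene, with capitals marking CCACCC or its reverse complement GGGTGG, the core of the Gli binding motif. The Hhip window is chr8:80057959-80058258, the Ptch1 window chr13:63565686-63565985 and the Smo window chr6:29735247-29735546. The Ptch1 window lies inside the span given for that gene, whose outermost start is further upstream.
Hhip: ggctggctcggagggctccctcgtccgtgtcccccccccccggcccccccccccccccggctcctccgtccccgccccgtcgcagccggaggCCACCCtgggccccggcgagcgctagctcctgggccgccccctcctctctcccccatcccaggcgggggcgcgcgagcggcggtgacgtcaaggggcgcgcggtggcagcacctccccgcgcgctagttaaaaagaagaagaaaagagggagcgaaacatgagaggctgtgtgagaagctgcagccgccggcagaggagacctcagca
Ptch1: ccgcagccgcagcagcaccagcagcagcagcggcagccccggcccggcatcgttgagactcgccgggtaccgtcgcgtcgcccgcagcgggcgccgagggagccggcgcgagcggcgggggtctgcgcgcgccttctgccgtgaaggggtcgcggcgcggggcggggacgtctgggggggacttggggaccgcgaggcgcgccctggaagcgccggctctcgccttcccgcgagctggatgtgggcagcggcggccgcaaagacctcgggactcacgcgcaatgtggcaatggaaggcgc
Smo: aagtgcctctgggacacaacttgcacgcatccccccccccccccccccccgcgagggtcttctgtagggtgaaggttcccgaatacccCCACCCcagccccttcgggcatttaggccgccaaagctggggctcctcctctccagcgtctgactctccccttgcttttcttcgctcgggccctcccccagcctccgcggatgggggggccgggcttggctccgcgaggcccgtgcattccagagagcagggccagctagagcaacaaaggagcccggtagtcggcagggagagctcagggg

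The core was present 158 bases before the start of Hhip and 162 bases before that of Smo, and these letters were not in the Ptch1 window. Searched on both strands, CCACCC occurred in 5 of the 6 matched promoters (Ihh, Gli2, Gli3, Hhip and Smo) and in 31.5% of 32851 promoters of the same length. The whole 9-base motif GACCACCCA, which contains the core, was in 0 of the 6 and in 0.253% of all promoters. The Tcf/Lef motif CTTTGAT was also in 0 of the 6, against 3.73% of all. GGGCGG, the GC box letters, was in 5 of the 6 (Ihh, Ptch1, Gli2, Gli3 and Hhip), against 35.7% of all.

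Total assigned reads ran from 10005066 to 32824795 in 52 libraries, with a median over all 53 of 18356939, and were 516985 in Apcfl/fl replicate 1. For the median library of each group, 3 reads corresponded to between 0.138 and 0.192 CPM. BA antibiotic replicate 3 stood apart, with a summed fibroblast marker level of 8348 CPM against at most 1844 in the other 4 libraries of its group. Transcripts of the recombined genes were not at 0: Apc was at 36.5 to 147 normalised CPM in Apcfl/fl against 64.4 to 111 in WT, and 136 to 161 in Apcfl/+ tumours against 191 to 210. Tgfbr1, which encodes Alk5, was at 42.0 to 58.2 in BA and 33.5 to 59.8 in A against 34.7 to 65.2 in WT at day 30, and at 91.5 to 172 in BA tumours against 49.4 to 55.9, so that whole-gene counts did not check the deletion. Reads assigned to Gm13394, a processed copy of Gapdh, were above 10 CPM in all 18 BA and A libraries of day 30 (69.2 to 244 CPM) and in 0 of the 4 WT libraries (0.421 to 0.786 CPM), in 3 of 4 BA tumours and 0 of 3 WT, and in 0 of 5 Apcfl/+ tumours and 3 of 3 WT. In small intestine of day 4 both groups were split, with 6 of 10 Apcfl/fl and 3 of 6 WT libraries above 10 CPM. What these divisions reflect, and their part in the results below, was not tested. The p-values of the group comparisons set a difference between groups against the spread between these libraries. They do not account for a division of libraries that runs along the groups.

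Levels below are normalised CPM, the reads of a gene relative to all assigned reads of its library, on 1 common TMM scale over the 53 libraries, where TMM is a scaling that assumes that most genes do not move. In WT proximal colon at day 30, scaled to gene length, Ihh was at 45.1 ± 11.7 RPKM (SD, n = 4) and Foxf1 at 14.2 ± 1.06 RPKM. Smo followed at 4.28 ± 0.068 RPKM, Ptch1 at 4.04 ± 0.686, Hhip at 3.26 ± 0.513 and Gli1 at 2.47 ± 0.449. Gli2 was at 0.849 ± 0.0579 RPKM, Gli3 at 0.819 ± 0.216 and Shh at 0.290 ± 0.128. The epithelial ligand Ihh was therefore the most abundant of the 9 transcripts per length, and Shh the least. In WT small intestine of day 4 Ihh (27.0 RPKM) and Foxf1 (11.3 RPKM) were again at the head, and Shh was at 0.0767 RPKM. Shh totalled 506 reads over the 53 libraries, with at most 76 in any one.

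**Figure D1:**
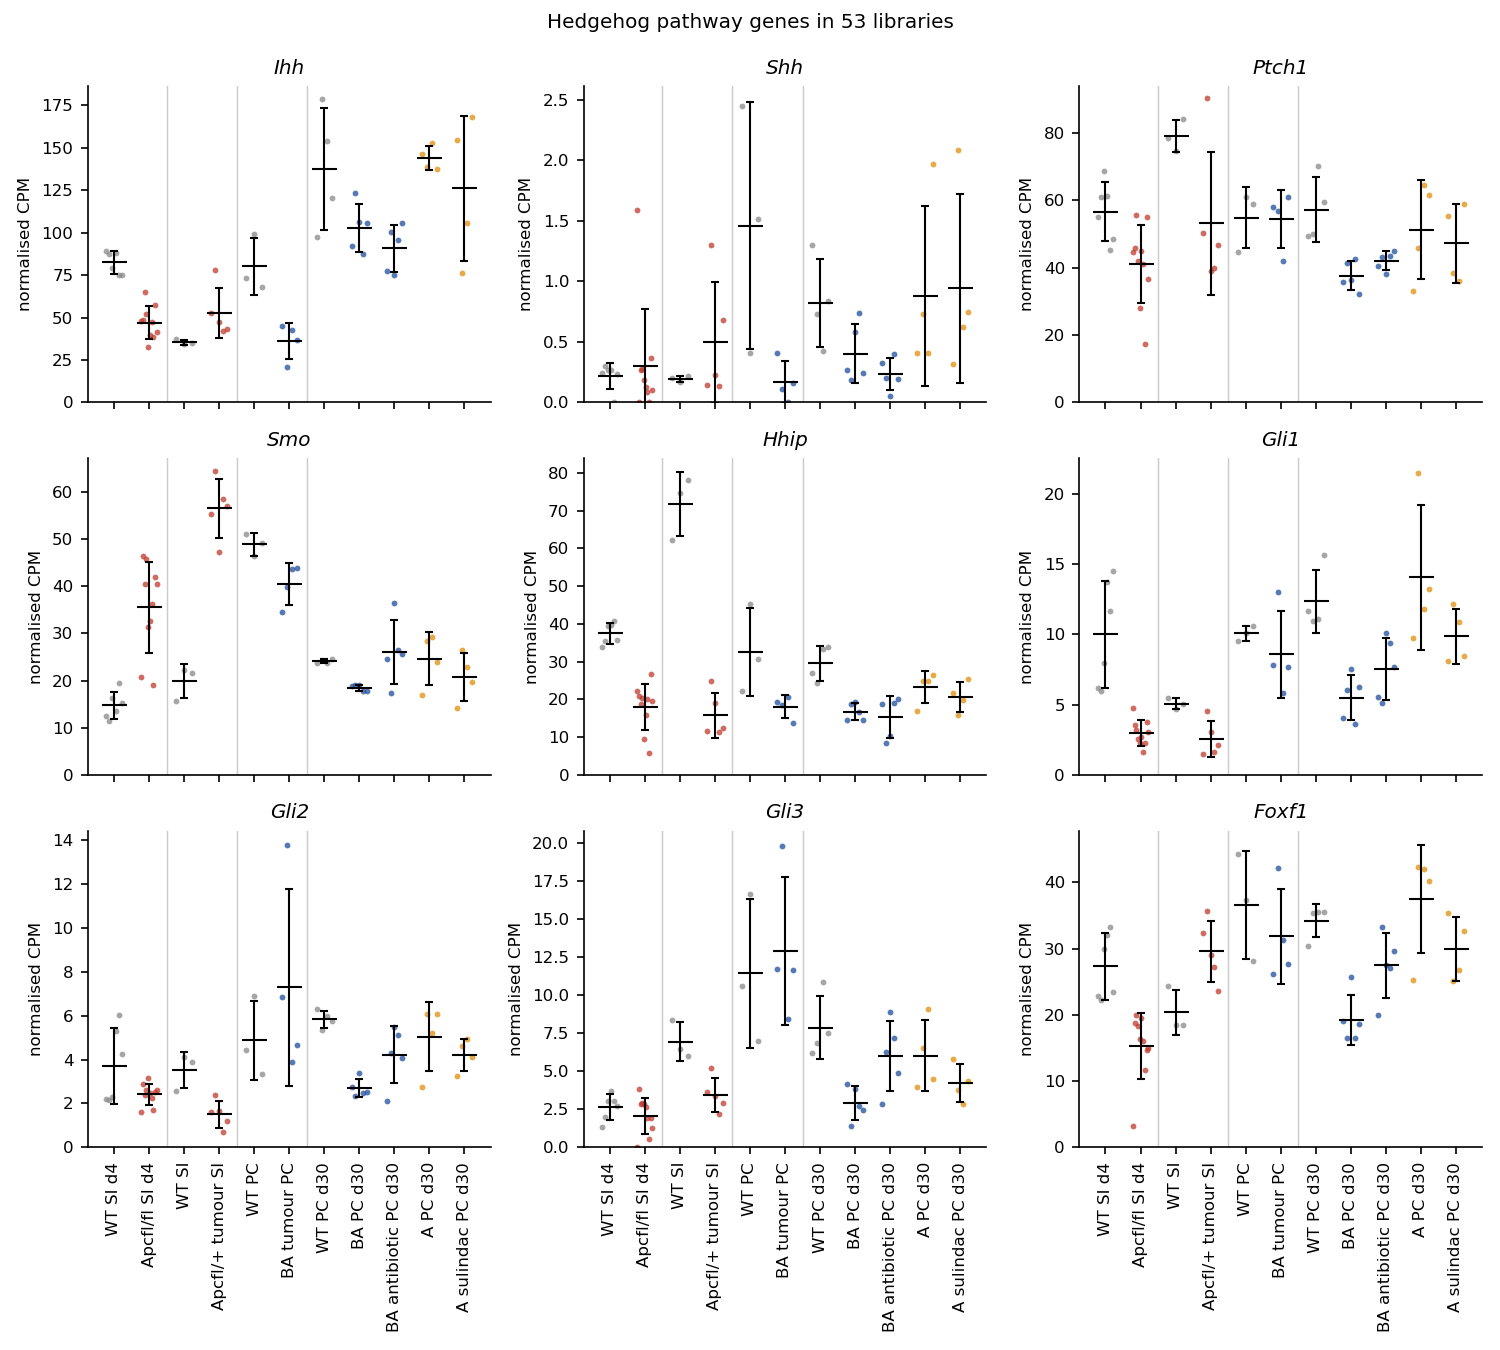
Level of each of the 9 genes in normalised CPM (vertical axis, from 0) in the 11 groups (horizontal axis); each point is a library, and the bar and line give the mean and SD, cut at 0. Ihh sits at 75.1 to 89.2 CPM in WT small intestine of day 4 and at 32.5 to 64.9 CPM in Apcfl/fl, while Smo is at 11.5 to 19.4 CPM and 19.0 to 46.4 CPM in the same groups.

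Across the 11 groups, mean Ihh was highest in A colon at day 30 (144 ± 7.10 CPM, n = 4) and lowest in the WT small intestine that accompanied the Apcfl/+ tumours (35.5 ± 1.47 CPM, n = 3), and in that order every group overlapped with the next. Ptch1 was highest in the same WT small intestine at 78.6, 74.5 and 84.2 CPM, above every library of the next group. Hhip was also highest there, at 62.2, 74.6 and 78.2 CPM, and did not overlap with the next group, WT small intestine of day 4. These orders run across tissues and sets of libraries, and no test was made of them.

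Acute loss of Apc releases Wnt signalling in the epithelium, and Apcfl/fl small intestine was compared with WT 4 days after induction. Of the 8 genes that passed the filter on low counts, 5 fell (Ihh, Ptch1, Gli1, Hhip and Foxf1) and 1, Smo, rose. In edgeR's quasi-likelihood test with Benjamini-Hochberg adjustment over all genes, 54.2% of 17536 genes were called, 27.5% higher and 26.7% lower. The median log2 fold change of the 8 was -0.66, against -0.00036 over all genes tested.

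The ligand Ihh was at 32.5, 47.6 and 64.9 CPM (lowest, median and highest) in Apcfl/fl and at 75.1, 83.4 and 89.2 CPM in WT. No Apcfl/fl library reached the lowest WT value. Ihh fell by 0.79 on the log2 scale (SE 0.12, edgeR adjusted p = 5.98e-05). Shh had at most 8 reads in any library of either group and was not tested.

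Gli1, the factor whose transcription depends most directly on the pathway, was at 1.61, 2.90 and 4.78 CPM in Apcfl/fl and 5.97, 9.81 and 14.5 CPM in WT. The groups did not overlap, and Gli1 was 3.52-fold lower (log2 fold change -1.82, SE 0.24, edgeR adjusted p = 1.2e-05). Hhip, which binds and sequesters ligand at the cell surface, was at 5.76, 19.8 and 26.7 CPM against 33.9, 37.7 and 40.8 CPM. Its groups were likewise separate (log2 fold change -1.07, SE 0.21, edgeR adjusted p = 0.00048). Ptch1 was at 17.4, 43.3 and 55.8 CPM against 45.3, 58.1 and 68.7 CPM, so that the groups overlapped. Its fall was the smallest of those called (log2 fold change -0.45, SE 0.18, edgeR adjusted p = 0.0382), and the call was kept in 8 of 16 fits that each left out 1 library, being lost without any of Apcfl/fl replicates 4, 5, 7 and 10 or WT replicates 1 to 4 (Ptch1 adjusted p up to 0.0932).

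Smo moved the other way, at 19.0, 38.3 and 46.4 CPM in Apcfl/fl and 11.5, 14.4 and 19.4 CPM in WT. Apcfl/fl replicate 8, at 19.0 CPM, was the only Apcfl/fl library within the WT range, and Smo rose 2.46-fold (log2 fold change 1.30, SE 0.18, edgeR adjusted p = 1.43e-05). The mesenchymal target Foxf1 was at 3.19, 16.2 and 19.999 CPM against 22.3, 26.7 and 33.3 CPM, without overlap, and fell by 0.76 on the log2 scale (SE 0.18, adjusted p = 0.0016). Its lowest value came from 2 reads in replicate 1. Gli2 and Gli3, the factors that relay the signal before Gli1 is made, had log2 fold changes of -0.56 (SE 0.24, edgeR adjusted p = 0.0548) and -0.22 (SE 0.32, adjusted p = 0.581). Gli2 was called in 4 of the 16 fits with 1 library left out, those without Apcfl/fl replicate 5 or WT replicate 1, 2 or 3. Without Apcfl/fl replicates 1 and 8, the shallowest libraries, an alternative chosen after seeing the data, 6 members were again called and they were the same genes.

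In whole tissue, fewer cells of a type and less RNA per cell cannot be told apart. Summed fibroblast markers were at 501 to 2715 CPM in Apcfl/fl and 1505 to 2370 CPM in WT, with 2 of 10 lower and 0 higher, and smooth muscle markers at 320 to 2321 against 995 to 2537 CPM, also with 2 lower. Endothelial markers were at 105 to 192 against 212 to 255 CPM, with 7 of 10 lower, leukocyte markers were at 142 to 380 against 333 to 565 CPM with 4 of 10 lower, and enteric neuron and glia markers had 7 of 10 lower. Epithelial markers were at 8385 to 11130 against 11192 to 13635 CPM, with 1 of 10 higher and 2 lower. Genes of the surface colonocyte list, which is named for colon and applied here to small intestine, moved with Ihh. They were at 1284 to 1919 against 2382 to 4313 CPM without overlap, with 4 of 5 tested lower and a median log2 fold change of -1.45. Their part in the result was not tested. No marker of any list was at 0 in a whole group. Taken as a log2 ratio to the mean fibroblast marker, Smo was higher in Apcfl/fl by 1.87 (exact permutation test, two-sided, p = 0.000125, adjusted over 112 ratios p = 0.014), with no overlap. That raw p is the smallest that 10 against 6 libraries can give. The log2 ratio of Ihh to the mean epithelial marker was lower by 0.71 (exact permutation p = 0.000375, adjusted p = 0.021), again with no overlap. The log2 ratio of Gli1 to fibroblast markers was lower by 1.04 but did not pass (exact permutation p = 0.0263, adjusted p = 0.132). Those of Ptch1, Hhip and Foxf1 differed by 0.13, -0.51 and -0.29, all with overlap (exact permutation p = 0.702, 0.219 and 0.122). Against smooth muscle markers, the log2 ratio of Smo was higher by 1.58, with overlap (exact permutation p = 0.00137, adjusted p = 0.0513), and that of Gli1 lower by 1.32 (exact permutation p = 0.0301, adjusted p = 0.132). Those of Ptch1, Hhip and Foxf1 to these markers differed by -0.15, -0.80 and -0.58, with overlap (exact permutation p = 0.779, 0.187 and 0.0227, the last at an adjusted p of 0.132). The only 2 ratios past the adjusted threshold in the 7 comparisons with WT were Smo to fibroblast and Ihh to epithelial markers. When Apcfl/fl replicate 1 was left out, 5 passed. In the smaller comparisons, the lowest p that so few libraries allow could pass the adjustment only if many ratios reached it together. Ratios that did not pass there therefore do not set those groups apart from Apcfl/fl.

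Primary small intestinal tumours of Apcfl/+ mice showed how the pathway stood once Apc-deficient tissue had grown into tumours. Here Ihh, Smo and Foxf1 rose and Hhip, Gli2 and Gli3 fell, 6 of the 8 genes tested, against 61.5% of 20567 genes called in this comparison. The median log2 fold change of the 8 was -0.68, and 0.03 over all genes.

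Ihh was at 52.4, 77.8, 47.5, 42.0 and 43.5 CPM in the 5 tumours and at 37.2, 34.5 and 34.8 CPM in the 3 WT tissues. Every tumour was above every WT sample, and Ihh rose by 0.67 on the log2 scale (SE 0.20, edgeR adjusted p = 0.0168). The call was lost without WT replicate 2 or 3 (Ihh adjusted p up to 0.0522). Shh, at 0.133 to 1.30 CPM in tumours and 0.167 to 0.216 CPM in WT, was not tested.

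Smo was at 55.2, 64.4, 47.3, 58.5 and 57.0 CPM in tumours and 15.8, 22.3 and 21.7 CPM in WT. The lowest tumour was above the highest WT sample by a wide margin, and Smo rose 3.04-fold (log2 fold change 1.604, SE 0.15, edgeR adjusted p = 6.98e-05). Hhip showed the reverse, at 11.5, 24.8, 19.0, 11.3 and 12.4 CPM in tumours and 62.2, 74.6 and 78.2 CPM in WT. It was 4.24-fold lower (log2 fold change -2.08, SE 0.26, edgeR adjusted p = 0.000275), the largest change of any member here. Ptch1 was at 50.3, 90.3, 38.9, 39.9 and 46.7 CPM in tumours and 78.6, 74.5 and 84.2 CPM in WT. The value in tumour replicate 2 lay above all WT samples and the other 4 lay below them (log2 fold change -0.47, SE 0.26, edgeR adjusted p = 0.14). Without that tumour Ptch1 was called (adjusted p = 0.000289).

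Among the Gli factors, Gli1 was at 1.46, 4.54, 3.03, 1.64 and 2.12 CPM in tumours and 5.46, 4.68 and 5.01 CPM in WT. Although each tumour lay below each WT sample on this scale, Gli1 was not called (log2 fold change -0.88, SE 0.35, edgeR adjusted p = 0.0547), and it was called without tumour replicate 2 (Gli1 adjusted p = 0.00268). Gli2 was at 1.599, 2.37, 1.65, 0.708 and 1.19 CPM against 2.57, 4.12 and 3.88 CPM, and Gli3 at 3.67, 5.19, 3.39, 2.17 and 2.90 CPM against 8.39, 6.46 and 5.98 CPM. Both fell without overlap, Gli2 by 1.13 (SE 0.35, edgeR adjusted p = 0.0202) and Gli3 by 0.90 (SE 0.27, edgeR adjusted p = 0.0163). The call of Gli2 was lost without WT replicate 2 or 3 (adjusted p up to 0.0764) and that of Gli3 without WT replicate 1 (adjusted p = 0.0723). Foxf1 was at 32.3, 35.7, 29.0, 27.2 and 23.6 CPM in tumours and 24.4, 18.4 and 18.4 CPM in WT. It rose by 0.64 (SE 0.16, edgeR adjusted p = 0.00752), with 1 tumour below the highest WT value on the common scale.

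The tumours held more fibroblast and less muscle signal. Summed fibroblast markers were at 3110 to 3920 CPM against 1673 to 2031 CPM, with 6 of 10 higher and 1 lower, and smooth muscle markers at 547 to 1062 against 1237 to 2101 CPM, with 6 of 10 lower. Endothelial markers had 7 of 10 higher, and epithelial markers, at 7361 to 13134 against 7918 to 9214 CPM, had 5 of 10 higher and 1 lower. Genes of the surface colonocyte list, again in small intestine, had 1 of 6 higher and 3 lower. Against fibroblast markers, the log2 ratio of Hhip was lower by 2.74, that of Gli2 by 1.73 and that of Gli3 by 1.52, and that of Smo was higher by 1.02 (exact permutation p = 0.0179 for each, the smallest that 5 against 3 can give, adjusted p = 0.132). Those of Gli1 and Ptch1 were lower by 1.57 and 1.14, without overlap (exact permutation p = 0.0357 for each, adjusted p = 0.138). That of Foxf1 differed by 0.04, with overlap (exact permutation p = 0.911). Against smooth muscle markers, which were lower here, Hhip was lower by 1.32, Smo higher by 2.43 and Foxf1 higher by 1.45 on the log2 scale, each without overlap (exact permutation p = 0.0179 for each, adjusted p = 0.132). The log2 ratios of the Gli factors to smooth muscle markers overlapped between the groups, with differences of -0.32 for Gli2 (exact permutation p = 0.357), -0.15 for Gli1 (p = 0.554) and -0.11 for Gli3 (p = 0.589). The lower ratios of the Gli factors, set apart from WT, were thus seen with fibroblast markers and not with muscle markers. The log2 ratio of Ihh to epithelial markers differed by 0.13 (exact permutation p = 0.982). Beyond these ratios, the part of the tissue makeup in the results was not tested.

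Primary tumours of BA mice in the proximal colon form on a BRAF-activated, TGFβ receptor-deleted epithelium. Of 8 genes tested, Ihh fell and the other 7 were not called, against 13.2% of 19188 genes called. That background of 2527 genes was 696 without WT replicate 1, 1089 without WT replicate 3 and 1380 without tumour replicate 4. In the same comparison 2 of the 8 had an unadjusted p under 0.05, as had 5420 of the 19188 genes. The median log2 fold change of the 8 was -0.24, against 0.03 over all genes.

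Ihh was at 44.8, 20.9, 42.6 and 36.8 CPM in BA tumours and 73.1, 99.1 and 68.0 CPM in WT. The highest tumour lay well below the lowest WT sample, and Ihh was 2.24-fold lower (log2 fold change -1.16, SE 0.26, edgeR adjusted p = 0.022). The call was kept in 3 of 7 fits with 1 library left out, and was lost without tumour replicate 4 or any one WT sample (Ihh adjusted p up to 0.0752). Shh was at 0.406, 0.108, 0 and 0.162 CPM in tumours, from at most 9 reads, and 2.45, 0.411 and 1.51 CPM in WT. Each WT sample was above each tumour, but Shh did not pass the filter on low counts. The library at 0 allows up to 3 reads.

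Hhip was at 19.3, 18.4, 20.7 and 13.9 CPM in tumours and 22.2, 45.2 and 30.6 CPM in WT. The groups did not overlap, and the test did not pass (log2 fold change -0.87, SE 0.26, edgeR adjusted p = 0.0595). Smo was at 34.5, 39.9, 43.7 and 43.8 CPM against 51.0, 46.3 and 49.2 CPM, also without overlap (log2 fold change -0.29, SE 0.18, adjusted p = 0.332). Ptch1, Gli1, Gli2, Gli3 and Foxf1 had log2 fold changes between -0.25 and 0.55 with adjusted p of 0.495 or more. For Gli2 the estimate was the least precise of these, with a 95% interval from -0.38 to 1.49, and tumour replicate 2 was at 13.8 CPM and the other 3 tumours at 3.91 to 6.85 CPM.

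Leukocyte markers were at 537 to 1527 CPM in these tumours against 311 to 356 CPM, with 7 of 10 higher. Summed fibroblast markers were at 4918 to 5739 against 1959 to 3051 CPM, with 3 of 10 higher and 1 lower, and smooth muscle markers had 5 of 10 lower. Surface colonocyte markers had 3 of 6 lower, while the summed epithelial level was at 11377 to 17590 against 13899 to 16950 CPM. The log2 ratio of Ihh to epithelial markers was lower by 1.21 (exact permutation p = 0.0571, adjusted p = 0.183), without overlap. Those of Hhip and Smo to fibroblast markers were lower by 1.18 and 0.66 (exact permutation p = 0.0286 for each, the smallest that 4 against 3 allows, adjusted p = 0.132). Against smooth muscle markers the differences had the opposite sign, at 0.28 for Hhip (exact permutation p = 0.543) and 0.81 for Smo (exact permutation p = 0.229), with overlap.

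In proximal colon tissue of BA mice at day 30, 8 of the 9 genes tested fell and Shh was not called, against 55.1% of 17471 genes called, 25.8% higher and 29.3% lower. The median log2 fold change of the 9 was -0.85, and -0.03 over all genes. The 4 comparisons of day 30 with WT share the same 4 WT libraries.

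Ihh was at 91.9, 123, 106, 87.4 and 106 CPM in BA colon and 97.7, 178, 154 and 120 CPM in WT. The ranges overlapped, and the fall was 0.43 on the log2 scale (SE 0.16, edgeR adjusted p = 0.0388). That call was kept in only 3 of 9 fits with 1 library left out (Ihh adjusted p up to 0.133, lost without BA replicate 1, 3, 4 or 5 or WT replicate 2 or 3) and was lost when the 5 groups of day 30 were fitted together (adjusted p = 0.0793). Shh was at 0.270, 0.185, 0.580, 0.742 and 0.242 CPM against 1.30, 0.733, 0.423 and 0.842 CPM, on at most 25 reads (log2 fold change -1.04, SE 0.44, edgeR adjusted p = 0.0633). Shh was called in 1 of the 8 fits with 1 library left out that tested it, the fit without WT replicate 3, its lowest WT library (adjusted p = 0.0318).

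Gli1 was at 4.05, 6.04, 7.54, 3.65 and 6.24 CPM in BA and 11.6, 10.9, 11.1 and 15.7 CPM in WT. Gli2 was at 2.76, 2.34, 3.40, 2.47 and 2.54 CPM against 6.29, 5.34, 5.96 and 5.74 CPM, and Gli3 at 4.18, 1.42, 3.81, 2.72 and 2.42 CPM against 6.19, 6.86, 10.8 and 7.53 CPM. For all 3 factors the highest BA library was below the lowest WT library. Gli1 fell by 1.18 (SE 0.21, edgeR adjusted p = 0.00057), Gli2 by 1.13 (SE 0.15, adjusted p = 7.11e-05) and Gli3 by 1.46 (SE 0.28, adjusted p = 0.0011). Foxf1 was at 19.0, 16.5, 25.7, 16.5 and 18.6 CPM against 30.41, 35.4, 35.6 and 35.5 CPM. It too fell without overlap, by 0.85 (SE 0.13, edgeR adjusted p = 0.000191).

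Ptch1 was at 35.8, 41.5, 36.3, 42.5 and 32.2 CPM in BA and 49.5, 49.9, 70.1 and 59.5 CPM in WT, and Hhip at 14.5, 18.8, 19.2, 16.6 and 14.6 CPM against 26.9, 24.5, 33.3 and 33.8 CPM. Each fell without overlap, Ptch1 by 0.62 (SE 0.12, edgeR adjusted p = 0.00122) and Hhip by 0.84 (SE 0.13, adjusted p = 0.000208). Smo was at 18.7, 19.1, 19.1, 17.9 and 17.7 CPM against 23.8, 24.3, 23.7 and 24.5 CPM. The groups did not overlap, and Smo fell by 0.39 on the log2 scale (SE 0.06, edgeR adjusted p = 0.000373). With the 5 groups of day 30 in 1 fit, where all groups share 1 estimate of the spread, it was not called (adjusted p = 0.0834).

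Mesenchymal and neural markers were lower in the same samples. Fibroblast markers were at 1199 to 1501 CPM against 1663 to 2059 CPM, with 9 of 10 lower and a median log2 fold change of -0.55. Smooth muscle markers were at 1254 to 4855 against 5966 to 6978 CPM, with 8 of 10 lower and a median of -0.96, and all 10 enteric neuron and glia markers were lower. Epithelial markers were at 24496 to 27911 against 12460 to 14799 CPM, with 9 of 10 higher. Against fibroblast markers, the log2 ratio of Gli3 was lower by 0.90, that of Gli1 by 0.63 and that of Gli2 by 0.53, each without overlap (exact permutation p = 0.0238, 0.0238 and 0.0159, adjusted p = 0.132 for each), and those of Ptch1 and Smo differed by -0.03 and 0.18. Against smooth muscle markers the log2 ratios differed by -0.08 for Gli1 (exact permutation p = 0.905), 0.02 for Gli2 (exact permutation p = 0.952) and -0.35 for Gli3 (exact permutation p = 0.0317, adjusted p = 0.132), all with overlap, and by 0.52 for Ptch1 and 0.73 for Smo. The lower ratios of Gli1 and Gli2 were thus seen with fibroblast markers and not with muscle markers. Surface colonocyte markers had 4 of 6 lower and 1 higher, with a median log2 fold change of -0.53 and a summed level of 5363 to 6494 against 4761 to 6149 CPM, and their part in the fall of Ihh was not tested. The log2 ratio of Ihh to epithelial markers was lower by 1.34 without overlap (exact permutation p = 0.00794, the smallest that 5 against 4 can give, adjusted p = 0.132).

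**Figure D2:**
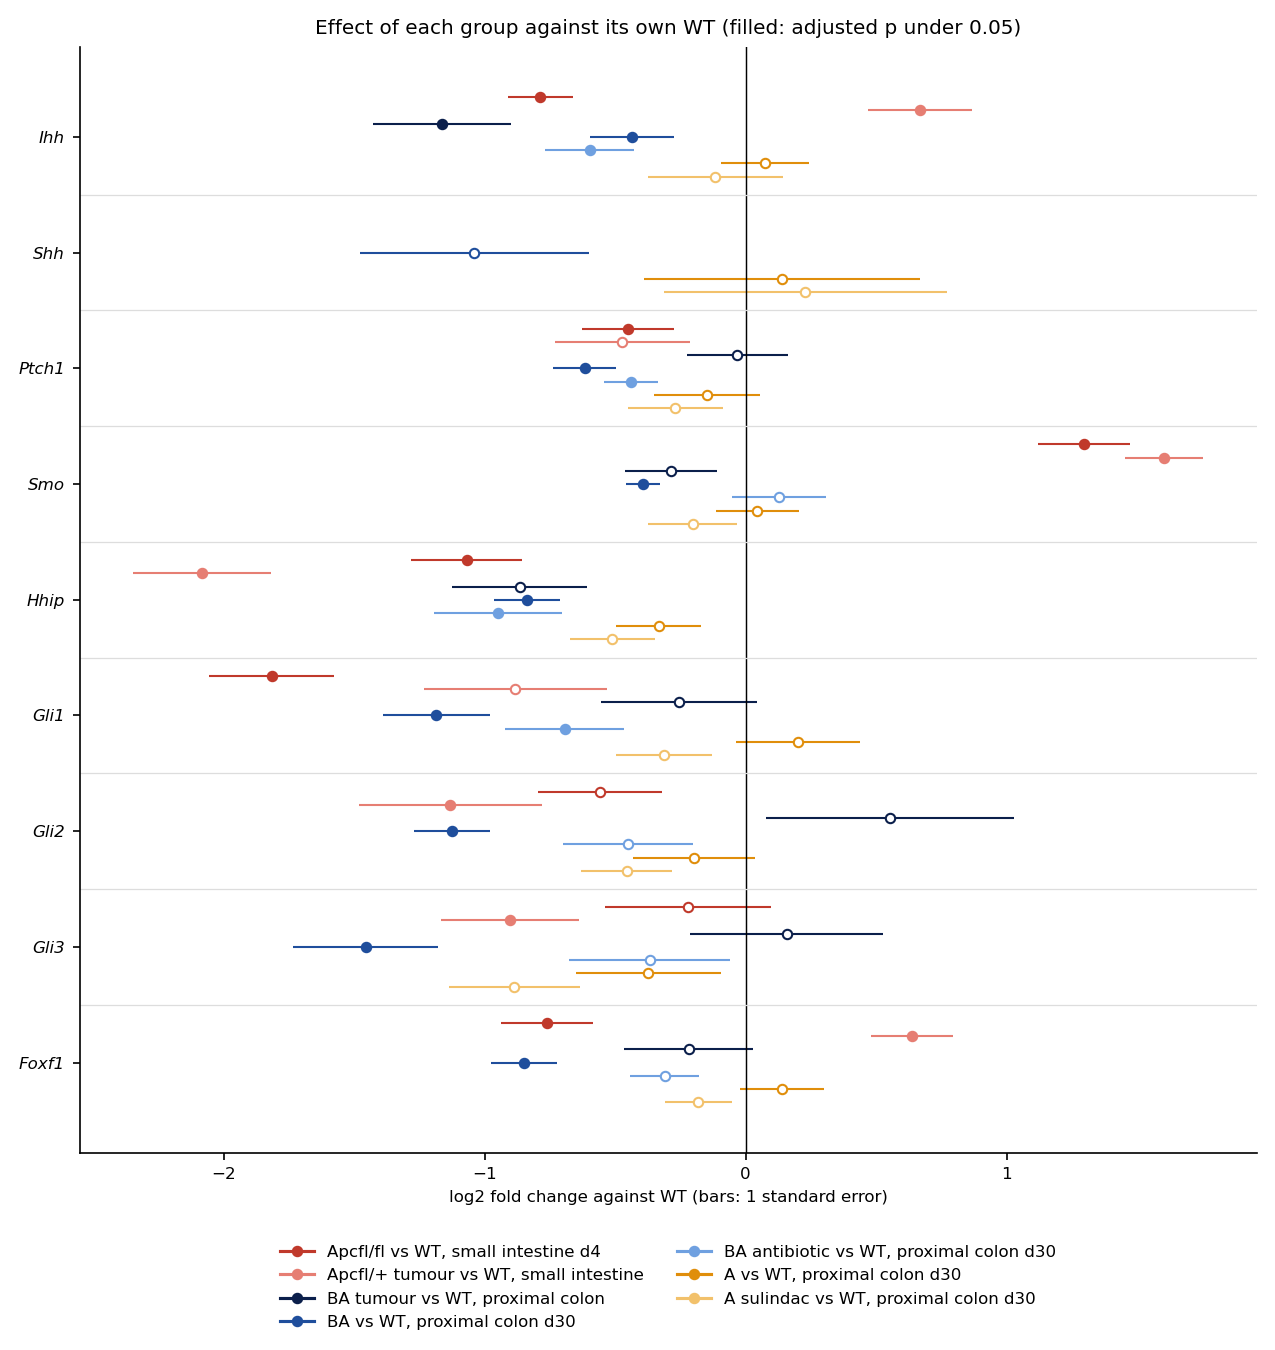
Log2 fold change (horizontal axis) of each of the 9 genes (vertical axis) in the 7 comparisons with WT; bars give 1 SE, and filled points were called at an adjusted p of 0.05. Hhip is below 0 in each comparison in which it was called, from -2.08 in Apcfl/+ tumours to -0.84 in BA colon at day 30, and Smo is at 1.30 and 1.604 in the Apc models and at -0.39 in BA colon.

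BA mice on antibiotics, a mixture used to deplete gut bacteria, were compared with the same WT mice. Ihh, Ptch1, Gli1 and Hhip fell, 4 of 8 genes tested, against 39.6% of 17569 genes called. The median log2 fold change of the 8 was -0.45, and 0.01 over all genes. Ihh was at 77.3, 100, 75.3, 95.5 and 106 CPM against 97.7, 178, 154 and 120 CPM in WT, with overlap, and fell by 0.60 (SE 0.17, edgeR adjusted p = 0.0185). Hhip was at 18.9, 8.32, 10.4, 19.0 and 20.1 CPM, below each of the 4 WT libraries, and fell by 0.95 (SE 0.24, edgeR adjusted p = 0.0113). Ptch1 was at 40.6, 43.2, 38.1, 43.5 and 45.0 CPM, again below each WT library (log2 fold change -0.44, SE 0.10, edgeR adjusted p = 0.00745). Gli1 was at 5.54, 5.11, 10.1, 9.39 and 7.66 CPM, with replicate 3 closest to the lowest WT library at 10.9 CPM (log2 fold change -0.69, SE 0.23, adjusted p = 0.0343). The call of Ihh was lost without WT replicate 2 or 3 (adjusted p up to 0.0544) and that of Gli1 without WT replicate 1 or 4 (adjusted p up to 0.107). Gli2, Gli3, Smo and Foxf1 were not called, at log2 fold changes of -0.45, -0.37, 0.13 and -0.31. The same 4 genes were called without replicate 3, the library high in fibroblast markers, where Gli1 was at a log2 fold change of -0.85. Summed fibroblast markers were at 1292 to 8348 CPM with 0 of 10 called in edgeR's test and 0 at an unadjusted p under 0.05, and smooth muscle markers at 2063 to 6668 CPM with 0 called and 1 at that unadjusted p. The log2 ratio of Ihh to epithelial markers, at 20537 to 30923 CPM, was lower by 1.503 without overlap (exact permutation p = 0.00794, adjusted p = 0.132). Surface colonocyte markers again had 4 of 6 lower and 1 higher.

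Set directly against untreated BA colon, antibiotics left 1 of 8 genes called, against 13% of 16680 genes. Foxf1, at 19.97, 33.3, 27.5, 27.0 and 29.6 CPM on antibiotics and 19.0, 16.5, 25.7, 16.5 and 18.6 CPM without, rose by 0.52 (SE 0.16, edgeR adjusted p = 0.0483), and the ranges overlapped. The call of Foxf1 was kept in 2 of 10 fits with 1 library left out, those without BA replicate 3 or antibiotic replicate 1, and it was lost without antibiotic replicate 3 (adjusted p = 0.0573). Gli3 was at 2.83, 6.27, 8.89, 7.20 and 4.85 CPM against 4.18, 1.42, 3.81, 2.72 and 2.42 CPM (log2 fold change 1.07, 95% interval 0.39 to 1.75, adjusted p = 0.0655). Gli2 and Smo were at log2 fold changes of 0.66 (edgeR adjusted p = 0.097) and 0.51 (adjusted p = 0.0663), and Ihh, Ptch1, Gli1 and Hhip at -0.18, 0.16, 0.48 and -0.13. Fibroblast markers had a median log2 fold change of 1.10 here with 0 of 10 called in edgeR's test, and 8 of 10 at an unadjusted p under 0.05. Their summed level was 8348 CPM in antibiotic replicate 3 and 1292 to 1844 CPM in the other 4 libraries, against 1199 to 1501 CPM in untreated BA colon.

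A mice lack the TGFβ receptor Alk5 in the epithelium and carry no Braf mutation. None of the 9 genes was called in A colon at day 30 against WT, and none had an unadjusted p under 0.05 in edgeR, while DESeq2 also called 0. Calls were rare in this comparison, at 0.141% of 17713 genes in edgeR, and 1717 genes had an unadjusted p under 0.05. Ihh was at 146, 139, 153 and 138 CPM in A and 97.7, 178, 154 and 120 CPM in WT (log2 fold change 0.07, 95% interval -0.26 to 0.40). Gli1 was at 9.74, 21.5, 11.8 and 13.2 CPM against 11.6, 10.9, 11.1 and 15.7 CPM (log2 fold change 0.20, 95% interval -0.27 to 0.66). Both sets overlapped. Hhip, at 17.0, 25.0, 24.9 and 26.5 CPM, had the lowest adjusted p of the 9 (log2 fold change -0.33, SE 0.16, edgeR adjusted p = 0.523).

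With sulindac, A colon against WT again gave 0 of 9 called in edgeR, against 0.0507% of 17742 genes, and 0 in DESeq2, which called 111 genes of all. At an unadjusted p under 0.05 in edgeR there were 3 of 9, against 1607 of the 17742 genes. Those 3 were Gli2, Gli3 and Hhip. Gli3 was at 5.83, 3.78, 2.87 and 4.38 CPM against 6.19, 6.86, 10.8 and 7.53 CPM, without overlap (log2 fold change -0.89, 95% interval -1.38 to -0.39, edgeR adjusted p = 0.42). Gli2 was at 3.26, 4.60, 4.93 and 4.11 CPM, also below each WT library (log2 fold change -0.46, edgeR adjusted p = 0.513). Hhip, at 21.6, 15.8, 19.8 and 25.3 CPM, overlapped with WT (log2 fold change -0.51, adjusted p = 0.459). Smooth muscle markers were at 3272 to 5957 CPM here against 5966 to 6978 CPM in WT, with 0 of 10 called in edgeR's test and 9 of 10 at an unadjusted p under 0.05. For sulindac against untreated A mice, 0% of 17568 genes and none of the 9 were called in edgeR, in which 460 genes and 0 of the 9 had an unadjusted p under 0.05, and DESeq2 called 5 genes of all. The log2 fold changes of the 9 lay between -0.51 for Gli1 (95% interval -1.01 to -0.01) and 0.10 for Shh. That interval leaves out 0 only because it takes 1.96 SE on each side, which is narrower than the test itself.

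BA and A mice differ in the Braf allele on the same Alk5-deleted background, and their colon was compared directly. Ihh, Gli1, Gli2, Gli3, Hhip, Smo and Foxf1 fell, 7 of 8 genes tested, against 45.3% of 17128 genes called. Ptch1 did not pass (log2 fold change -0.44, edgeR adjusted p = 0.0754). Ihh was at 91.9, 123, 106, 87.4 and 106 CPM in BA and 146, 139, 153 and 138 CPM in A, without overlap (log2 fold change -0.47, SE 0.11, edgeR adjusted p = 0.00469). Gli1 was at 3.65 to 7.54 CPM against 9.74 to 21.5 CPM, also separate, and fell by 1.35 (SE 0.26, edgeR adjusted p = 0.00188). Foxf1, at 16.5 to 25.7 CPM against 25.3 to 42.4 CPM, fell by 0.96 (SE 0.18, adjusted p = 0.00156), with 1 library of each group crossing. Gli2, Gli3, Hhip and Smo fell by 0.90, 1.05, 0.47 and 0.41. The calls of Ihh, Gli1, Gli2 and Foxf1 were kept in all 9 fits with 1 library left out, that of Gli3 in 6, that of Hhip in 3 and that of Smo in 1. The count dropped to 4 without BA replicate 5, A replicate 2 or A replicate 3. Unlike the contrast with WT, both groups here had high Gm13394 reads in every library, at 103 to 244 CPM in BA and 107 to 127 CPM in A. Fibroblast markers were at 1199 to 1501 CPM in BA and 1530 to 1932 CPM in A, with 5 of 10 lower, and smooth muscle markers had 4 of 10 lower. Epithelial markers had 9 of 10 higher (median log2 fold change 0.70) and enteric neuron and glia markers 8 of 10 lower (median -1.44). The part of these lists in the result was not tested.

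Whether the effects differed between settings was tested as a difference of log2 fold changes in 1 fit of 4 groups. Between BA tumours and BA colon at day 30, each against its own WT, the effect on Gli2 was higher in tumours by 1.66 (SE 0.47, edgeR adjusted p = 0.0243) and that on Gli3 by 1.598 (SE 0.49, adjusted p = 0.0345), 2 of 9 tested against 16.3% of 20637 genes called. Both had fallen at day 30 and neither was called in tumours. Gli2 lost the call without WT replicate 1 or 3 of the tumour comparison (adjusted p up to 0.077), and Gli3 kept it in 9 of 16 fits with 1 library left out. Differences for Gli1 (0.92, adjusted p = 0.0947), Ptch1 (0.58, adjusted p = 0.0779) and Ihh (-0.73, adjusted p = 0.136) were not called. Fibroblast markers had 5 of 10 higher and 1 lower in this difference, and leukocyte markers 8 of 10 higher.

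Between Apcfl/+ tumours and acute Apcfl/fl tissue, 3 of 9 differences were called, against 24.7% of 22202 genes. Ihh fell after acute loss and rose in tumours, a difference of 1.43 (SE 0.24, edgeR adjusted p = 0.000191). Foxf1 did the same, with a difference of 1.35 (SE 0.30, edgeR adjusted p = 0.00218). The fall of Hhip was larger in tumours by 1.05 (SE 0.37, edgeR adjusted p = 0.0415), a call kept in 8 of 24 fits with 1 library left out (adjusted p up to 0.108). Smo rose in both, and its difference of 0.26 was not called (95% interval -0.27 to 0.79). Over all genes the split was 2759 higher and 2727 lower, and with RLE size factors in place of TMM it was 2100 and 3458. The median of all genes moved with that scaling from -0.02 to -0.16, and the same 3 members were called. In the same difference fibroblast markers had 6 of 10 higher (median 1.22), endothelial markers 7 of 10 higher (median 1.36) and epithelial markers 4 of 10 higher (median 0.82), and their part in the differences for Foxf1 and Ihh was not tested. On the common scale, mean Ihh was 47.0 CPM in Apcfl/fl and 52.6 CPM in Apcfl/+ tumours, and 82.4 and 35.5 CPM in their WT. Mean Hhip was 18.0 and 15.8 CPM, and 37.5 and 71.7 CPM in WT. For Ihh and Hhip the WT groups thus lay further apart than the Apc groups. Foxf1 was at 15.3 and 29.6 CPM, and 27.3 and 20.4 CPM in WT. What separates the WT groups was not tested. The groups differ in genetic background as well as in tumour growth.

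Between BA tumours and Apcfl/+ tumours, each against its own WT, 6 of 9 differences were called, against 39.7% of 21668 genes. The effect on Smo was lower in BA tumours by 1.87 (SE 0.21, edgeR adjusted p = 5.74e-05), that on Ihh by 1.80 (SE 0.35, adjusted p = 0.0019) and that on Foxf1 by 0.83 (SE 0.29, adjusted p = 0.0344). The effect on Hhip was higher by 1.25 (SE 0.40, edgeR adjusted p = 0.0228) and that on Gli2 by 1.71 (SE 0.62, adjusted p = 0.0409). Smo and Ihh, with Shh, were called in all 15 fits with 1 library left out. The call of Hhip was lost without WT colon replicate 1 or 3 or WT small intestine replicate 2 or 3 (Hhip adjusted p up to 0.0717), and that of Foxf1 without WT colon replicate 1 or WT small intestine replicate 2 or 3 (Foxf1 adjusted p up to 0.102). For Gli2 the call was kept in 5 of the 15 fits, and without WT colon replicate 1 or WT small intestine replicate 2 or 3 the count was 3. Shh gave a difference of -4.41 (SE 1.28, adjusted p = 0.0148), which rests on 0 to 9 reads in BA tumours, 7 to 76 in their WT, 3 to 28 in Apcfl/+ tumours and 3 or 4 in their WT. Leukocyte markers had 6 of 10 higher in this difference (median 1.93), fibroblast markers 1 of 10 lower and epithelial markers 1 higher and 2 lower of 10. Tissue and genetic background differ between these comparisons and cannot be told apart from the tumour type.

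**Figure D3:**
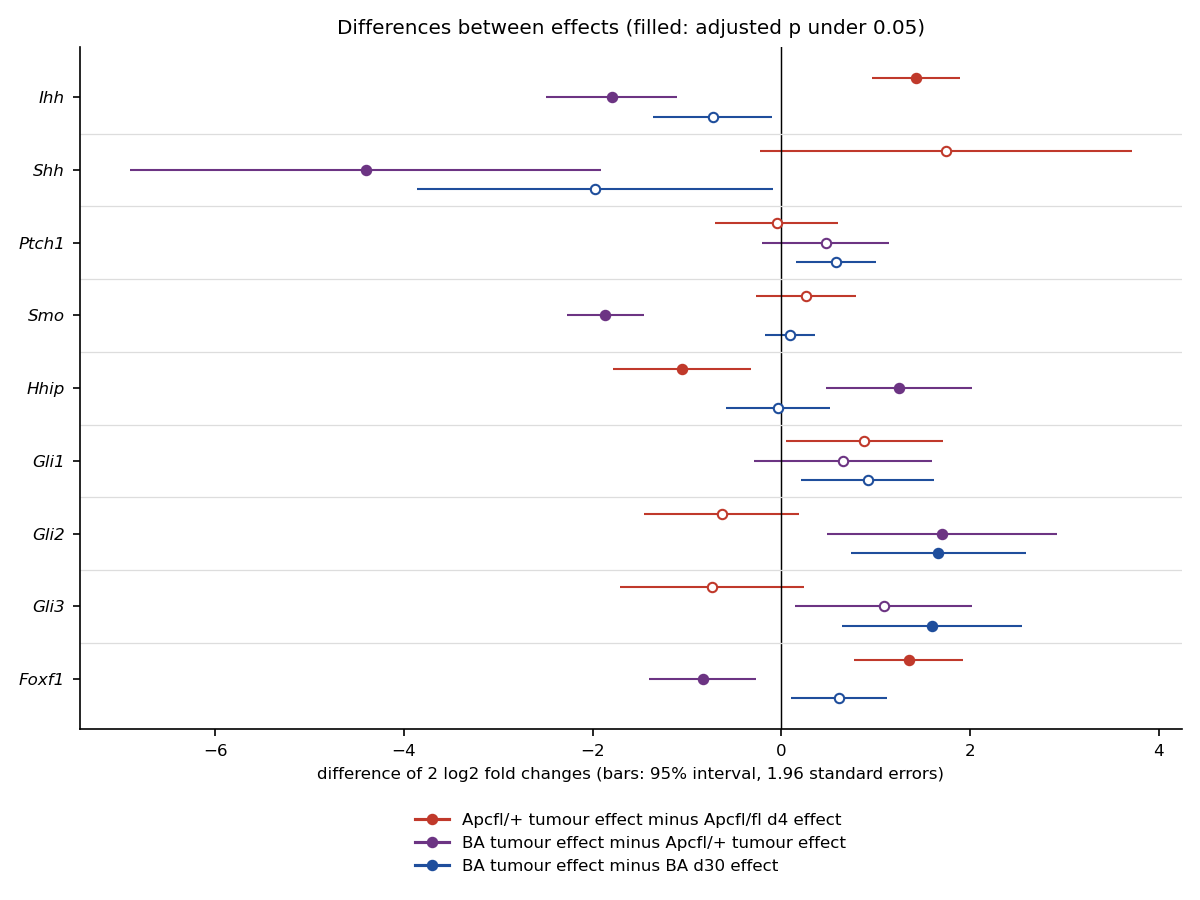
Difference of log2 fold changes (horizontal axis) for each of the 9 genes (vertical axis) in the 3 tests between settings. Bars give the 95% interval as 1.96 SE on each side. Smo and Ihh lie at -1.87 and -1.80 for BA tumours minus Apcfl/+ tumours, and Ihh at 1.43 for Apcfl/+ tumours minus acute Apcfl/fl tissue.

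**Figure D4:**
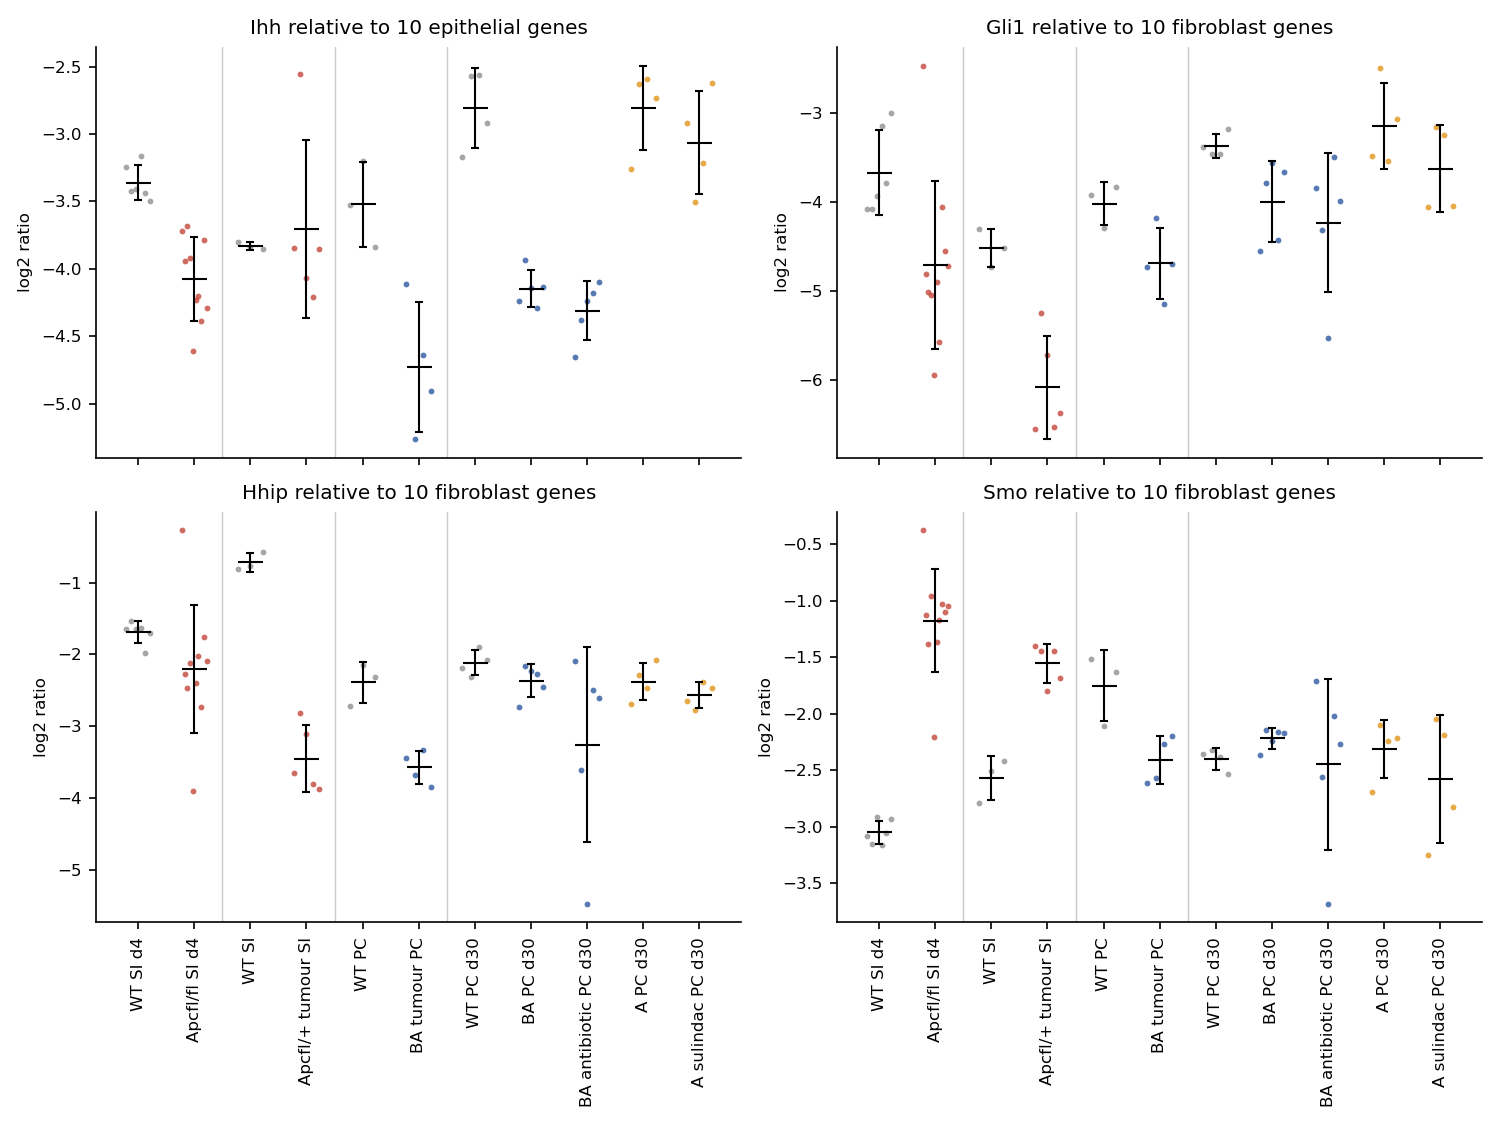
Log2 ratio (vertical axis) of Ihh to the mean epithelial marker and of Gli1, Hhip and Smo to the mean fibroblast marker, one point for each library by group (horizontal axis), with the mean and SD of each group as bar and line. Smo relative to fibroblast markers is at a mean of -1.18 in Apcfl/fl and -3.05 in its WT, and Ihh relative to epithelial markers at -4.15 in BA colon and -2.81 in WT at day 30.

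Other genes of the pathway were counted in 3 lists. Of the genes for ligand release and reception, 3 fell and 1 rose of 9 tested in Apcfl/fl, with Scube3 lowest (log2 fold change -1.18, edgeR adjusted p = 0.00124) and the co-receptor Boc higher (0.60, adjusted p = 0.0477). In Apcfl/+ tumours 4 of 10 rose and 1 fell, led by the ligand Dhh (1.89, edgeR adjusted p = 0.00224) and with Scube2, which helps release lipid-modified ligand, at -1.39 (adjusted p = 0.0104). BA tumours had 2 of 10 higher and 2 lower, again with Dhh highest (2.18, edgeR adjusted p = 0.0344) and Scube2 lowest (-2.74, adjusted p = 0.00599). In BA colon at day 30, 6 of 9 fell and 0 rose, from the co-receptor Gas1 at -1.38 (edgeR adjusted p = 0.00406) to the co-receptor Cdon at -0.62 (adjusted p = 0.00773). With antibiotics 1 of 9 fell and 1 rose. The medians of this list over those tested were -0.47, 0.28, 0.22, -0.67 and -0.32 in the 5 comparisons, in that order. The shares called were 44.4%, 50%, 40%, 66.7% and 22.2%, against 54.2%, 61.5%, 13.2%, 55.1% and 39.6% of all genes.

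Of 23 genes for signal transduction, 6 rose and 8 fell in Apcfl/fl, with Tulp3, which carries receptors into the cilium, at 0.81 (edgeR adjusted p = 0.00486) and Evc, a partner of Smo at the cilium, at -1.46 (adjusted p = 1.3e-05). In Apcfl/+ tumours 7 rose and 2 fell, between Stk36 at 1.49 (edgeR adjusted p = 0.000862) and Gsk3b, a kinase that marks Gli proteins for processing, at -0.59 (adjusted p = 0.00276). BA tumours had 0 of 23 called in edgeR's test, and 2 at an unadjusted p under 0.05, as had 5420 of all 19188 genes. BA colon at day 30 had 5 higher and 8 lower, with the kinase Ulk3 at 1.07 (edgeR adjusted p = 1.22e-06) and Gpr161, a ciliary inhibitor of the pathway, at -1.19 (adjusted p = 0.000183), and with antibiotics 5 rose and 5 fell, with Ulk3 at 1.34 (adjusted p = 2.37e-06). Unlike the members, this list was split in direction in BA colon, and its median was -0.18. Over the 5 comparisons, in the order given, 60.9%, 39.1%, 0%, 56.5% and 43.5% of the list were called. The shares of all genes were 54.2%, 61.5%, 13.2%, 55.1% and 39.6%.

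Of 10 further targets, 2 rose and 3 fell in Apcfl/fl, 5 rose and 3 fell in Apcfl/+ tumours, 1 rose in BA tumours, 1 rose and 4 fell in BA colon at day 30, and 2 rose and 1 fell with antibiotics. In that order the shares called were 50%, 80%, 10%, 50% and 30%, against 54.2%, 61.5%, 13.2%, 55.1% and 39.6% of all genes. The cyclin gene Ccnd2 was called in 5 of the 7 comparisons with WT, at 1.11 in Apcfl/fl, -0.89 in Apcfl/+ tumours, 1.79 in BA tumours, 0.49 in BA colon and 0.39 with antibiotics. Bmp4, a mesenchymal growth factor gene, was called in 4, at -0.50 in Apcfl/fl, 1.40 in Apcfl/+ tumours, -0.41 in BA colon and -0.33 with antibiotics. Bmp4 thus fell in acute Apc loss and rose in tumours, the directions seen for Foxf1. Ccnd1 was at 1.32 in Apcfl/fl (edgeR adjusted p = 0.00136), Foxf2 at -1.03 (adjusted p = 8.05e-06), Mycn at 2.62 in Apcfl/+ tumours (adjusted p = 0.000257), and Osr1 at -1.34 there (adjusted p = 0.0271) and -1.54 in BA colon (adjusted p = 0.00264). In A mice, with or without sulindac, 0 of the genes on these 3 lists were called against WT in edgeR. At an unadjusted p under 0.05 there were 2 without sulindac and 7 with it, against 1717 of 17713 and 1607 of 17742 genes over all. Against A mice, BA colon had 0 of 9 higher and 4 lower for reception, 6 higher and 7 lower of 23 for transduction, and 1 higher and 5 lower of 10 further targets. These are 44.4%, 56.5% and 60% of those tested, against 45.3% of all genes.

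In the 10 Apcfl/fl and 6 WT mice of day 4, members were correlated in pairs, 56 correlations in all. After adjustment 3 Pearson correlations passed, all in Apcfl/fl (n = 10): Gli3 with Foxf1 (r = 0.968, permutation p = 0.00015, adjusted p = 0.0084), Ptch1 with Hhip (r = 0.925, adjusted permutation p = 0.0461) and Gli2 with Gli3 (r = 0.852, adjusted permutation p = 0.0461). Their Spearman coefficients were 0.855, 0.552 and 0.612, and none of the 56 passed (lowest adjusted permutation p = 0.17). Without the 2 mice farthest from the median, r was 0.770, 0.330 and 0.337, so that the relations of Ptch1 with Hhip and of Gli2 with Gli3 rest on those mice. That of Gli3 with Foxf1 includes very low counts. Apcfl/fl replicate 1, at 516985 reads in total, had 2 reads of Foxf1, and the lowest Gli3 count in the group was 0.

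Among 14714 genes, those whose levels followed Ihh most closely over the 53 libraries, each centred on its own WT mean on the log2 scale, were Nudt4 (r = 0.837), Ttc38 (0.836), Pgap3 (0.834), Tsc22d1 (0.827) and Smad6 (0.812). For Gli1 they were Galnt15 (r = 0.849), Slc9a9 (0.822), Npr2 (0.819), Ptger2 (0.810) and Col23a1 (0.805). The libraries share groups and depth, so these values describe and do not test.

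Several members overlap genes on the other strand, and reads of the unstranded kit cannot be assigned between them. Gli1 shares 62 exon bases, 1.24% of its exons, with Arhgap9, which is expressed in leukocytes, and Shh shares 446 bases, 15.7% of its exons, with 9530036O11Rik.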

How the data were processed

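The authors deposited 1 table of raw read counts per gene for the 53 libraries, made from paired-end reads of 36 bases (TruSeq RNA sample prep kit v2). The submitters' processing notes name FastQC 0.11.8, Trim Galore 0.6.4, HISAT2 2.1.0, featureCounts 1.6.4 and GRCm38. The strand setting and the handling of reads with several matches are not given in the sources used here, and the kit does not mark strand. Gene IDs were matched to symbols for 55240 of 55421 genes. Groups and replicate numbers were taken from the labels, which name no sex or batch.

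Each pair of groups was fitted alone with edgeR 4.0.16 in R 4.3.3, after filterByExpr and TMM, with the quasi-likelihood test and Benjamini-Hochberg adjustment over all genes tested at 0.05. A fit of 4 groups gave each difference of effects. The SE was taken from the log2 fold change and its F statistic. Alternatives were DESeq2 1.42.0, RLE size factors in place of TMM, a fit of every gene with at least 1 read, a replicate block, a joint fit of the 5 groups of day 30, and fits that each left out 1 library. Levels are normalised CPM, with a prior count of 2 on the log2 scale, and RPKM uses exon length. Log2 ratios to marker means were compared by exact two-sided permutation tests, adjusted over 112 ratios. Correlations were tested with 100000 random permutations in Apcfl/fl and with all permutations in WT. Scripts were tested on simulated data.

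All 9 members are named in every comparison. Of other Hedgehog genes, the called gene with the highest and the lowest log2 fold change, and genes called in at least 4 of the 7 comparisons with WT, are named, with the 5 genes outside the lists whose centred levels correlated best with Ihh and with Gli1 over the 53 libraries. The members and lists were chosen with earlier results of these data known. Apc, Tgfbr1, Gm13394 and Arhgap9 are named outside that rule, as checks of the libraries and of overlapping genes. Depth limits Shh, with 3 reads taken as the limit that a count of 0 allows. That limit covers counting error only.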

Additional observations from a re-analysis of the deposited data

Results flagged for a closer look

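In groups of 4 to 10 libraries, 9 of 81 tests found a library far from the others of its group by Dixon's criterion, where chance gives about 1 in 20. Shh was at 1.59 CPM in Apcfl/fl replicate 1, from 1 read, and at 0 in WT replicate 5 of day 4. Ptch1 was at 90.3 CPM in Apcfl/+ tumour replicate 2, the only tumour above WT, and the call of Ptch1 turned on it. Gli1 was at 15.7 CPM in WT replicate 4 of day 30. Hhip was at 17.0 CPM in A replicate 1. Foxf1 was at 3.19 CPM in Apcfl/fl replicate 1, from 2 reads, at 25.7 CPM in BA replicate 3, at 25.3 CPM in A replicate 1 and at 30.41 CPM in WT replicate 1 of day 30.

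Effects differed between settings by edgeR's test of the difference, adjusted over all genes, for 11 values. Between BA tumours and BA colon at day 30, the differences were 1.66 for Gli2 and 1.598 for Gli3, both higher in tumours. Between Apcfl/+ tumours and acute Apcfl/fl tissue they were 1.43 for Ihh, 1.35 for Foxf1 and -1.05 for Hhip. Between BA tumours and Apcfl/+ tumours they were -1.80 for Ihh, -4.41 for Shh, -1.87 for Smo, -0.83 for Foxf1, 1.25 for Hhip and 1.71 for Gli2.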

How the results depend on the processing

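No call among the 9 genes reversed under the alternatives run. Of the single-gene log2 fold changes and log2 ratios to markers under them, 1866 kept their side of the threshold, 111 lost the call and 27 gained it. Members called in BA tumours, 1 as reported, were 2 with DESeq2, 3 without the low-count filter and 0 with the replicate block. For antibiotics against untreated BA colon, 1 as reported, there were 3 with DESeq2, 0 with the replicate block and 0 with the 5 groups of day 30 in 1 fit. For BA tumours minus BA colon, 2 as reported, there was 1 with the replicate block. The cause was not tested.

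With 1 library left out in turn, members called were 0 to 1 in BA tumours, 0 to 3 for antibiotics against BA (3 without antibiotic replicate 1), 4 to 8 for BA against A (8 without A replicate 1), 0 to 4 for BA tumours minus BA colon (0 without WT replicate 1 or 3 of the tumours, 4 without tumour replicate 3) and 3 to 8 for BA tumours minus Apcfl/+ tumours (8 without Apcfl/+ tumour replicate 2), and 2 to 5 ratios to markers passed. The other counts of members stayed within 1.5 times of those reported.

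Replicate numbers were not taken as pairs, since in no comparison did every same-numbered pair correlate above 0.1 (correlations from -0.484 to 0.293). Every sample correlated best with its own number in none of them. The same-numbered WT library was the best match for 3 of 4 samples in BA colon and in A colon at day 30. It was so for 2 of 4 with antibiotics, 2 of 3 in Apcfl/+ tumours and 1 of 6 in Apcfl/fl. In BA tumours and in A with sulindac it was so for 0. What this reflects was not tested. With the replicate block 6 members were called in Apcfl/fl, 4 in Apcfl/+ tumours, 8 in BA colon, 5 with antibiotics and 5 for BA against A.

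Calls over all genes moved by more than 1.5 times with the replicate block in Apcfl/+ tumours (12650 to 8333), BA tumours (2527 to 931), antibiotics against BA (2172 to 1284), BA tumours minus BA colon (3371 to 2084) and A with sulindac (9 to 2). DESeq2 gave 3798 in BA tumours, 136 in place of 25 in A and 111 in A with sulindac. Without the filter there were 72 in A and 24 in A with sulindac. The joint fit of day 30 gave 29 in A with sulindac and 1074 for antibiotics against BA. For sulindac against A, 0 as reported, there were 5 with DESeq2 and 1 without the filter or with the block. With 1 library left out, calls over all genes moved past 1.5 times in BA tumours (696 without WT replicate 1, 1089 without WT replicate 3, 1380 without tumour replicate 4), antibiotics against BA (1300 without antibiotic replicate 5), BA tumours minus BA colon (2225 without WT replicate 3 of the tumours), Apcfl/+ tumours minus Apcfl/fl (5486 to 3603 without WT replicate 3 of the tumours), A (15 or 16 without WT replicate 2, 3 or 4) and A with sulindac (18 without its replicate 1, 4 or 5 without any 1 WT library). Depth limits Shh most.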
